A study of Homo sapiens with 6 samples.

Results

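MicroRNA host noncoding genes are long RNA genes whose transcripts carry the hairpins from which microRNAs are cut. They were chosen by name: every noncoding gene whose symbol starts with MIR and ends with HG. Of the 37192 genes whose transcription units (TUs) could be matched to the annotation, 80 met this rule, with 84 TUs. All 6 libraries came from untreated K562 cells, a human chronic myelogenous leukemia line, cultured in RPMI-1640 medium with fetal bovine serum and penicillin/streptomycin. The 2 PRO-seq libraries measured nascent RNA on engaged RNA polymerase, and the 4 RNA-seq libraries measured total RNA after removal of ribosomal RNA. By the study's methods, the cells for both assays shared 1 flask, so p-values measure only the spread between these libraries, which may be technical.

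In the nucleus, DROSHA and its partner DGCR8 cut the hairpin out of the long primary transcript. XPO5 carries the hairpin to the cytoplasm, DICER1 trims it to a short duplex, and an Argonaute protein keeps one strand. That strand finds its target messages mainly through its seed, the bases near its 5′ end. A host transcript may carry the hairpin in an intron or in an exon, and several hairpins may share one host.

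Of the 80 host genes, 66 held at least 1 hairpin of the RefSeq microRNA set used inside a TU on the same strand. These TUs held 106 microRNA genes that give 169 distinct mature microRNAs with 147 distinct seeds. That set had no entry for the namesake microRNA of some hosts, among them MIR124-1HG, MIR124-2HG, MIR2052HG and MIR3150BHG. The 66 hosts and 106 microRNA genes are therefore lower limits. Most of these microRNA genes, 77, lay in introns and 21 in exons. The other 8 crossed an exon edge or changed place with the TU of the host. MIR493HG in the imprinted 14q32 region held most hairpins (10), followed by MIR17HG with 6 and MIR302CHG with 5. The mature microRNAs of the hosts described most closely below are given 5′ to 3′ from RefSeq (GRCh38.p14), with the seed, bases 2 to 8, in capitals. The first 6 belong to the MIR17HG cluster, the next 5 share the let-7 seed although they come from 3 hosts, and the last 8 belong to 6 other hosts described below:
hsa-miR-17-5p: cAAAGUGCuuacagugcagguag
hsa-miR-18a-5p: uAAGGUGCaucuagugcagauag
hsa-miR-19a-3p: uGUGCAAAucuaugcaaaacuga
hsa-miR-20a-5p: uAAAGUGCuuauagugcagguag
hsa-miR-19b-3p: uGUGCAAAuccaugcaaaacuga
hsa-miR-92a-3p: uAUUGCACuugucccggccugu
hsa-let-7a-5p: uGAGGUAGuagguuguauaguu
hsa-let-7f-5p: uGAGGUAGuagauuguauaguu
hsa-let-7d-5p: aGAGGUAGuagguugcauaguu
hsa-let-7i-5p: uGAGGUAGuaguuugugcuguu
hsa-miR-4458: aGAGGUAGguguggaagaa
hsa-miR-142-3p: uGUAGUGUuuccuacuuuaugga
hsa-miR-223-3p: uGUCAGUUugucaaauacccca
hsa-miR-22-3p: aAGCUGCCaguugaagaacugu
hsa-miR-194-5p: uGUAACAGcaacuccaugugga
hsa-miR-192-5p: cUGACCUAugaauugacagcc
hsa-miR-503-5p: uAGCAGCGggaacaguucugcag
hsa-miR-221-3p: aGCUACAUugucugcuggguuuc
hsa-miR-222-3p: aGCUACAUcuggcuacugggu

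Within the MIR17HG cluster, miR-17-5p shares its seed with miR-20a-5p, and miR-19a-3p with miR-19b-3p. The X-linked pair miR-221-3p and miR-222-3p also shares one, from MIR222HG. In that RefSeq set, the let-7 seed was carried by 6 mature microRNAs of 4 hosts, the fourth host being MIR4500HG.

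Counts on the 84 TUs made up between 0.0430% and 0.0504% of the matched counts of an RNA-seq library, and 0.325% and 0.336% of those of the PRO-seq libraries. Summed over libraries, 65 TUs had an RNA-seq count, 69 a PRO-seq count and 53 a count in both. At least 10 counts in each assay were reached by 32 TUs of 32 genes. Another 22 had at least 10 PRO-seq counts and fewer than 10 RNA-seq counts, 4 had the reverse, and 26 had fewer than 10 in each. The counts were unevenly spread. MIR17HG, the shorter TU of MIRLET7A1HG and MIR223HG held 55.0% of all RNA-seq counts on host genes, whereas the longest TU of MIR4435-2HG, MIR3667HG and MIR17HG held 55.5% of the PRO-seq counts.

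Levels are given as length-normalized TPM, computed per length of exon for RNA-seq and per length of TU less 1000 bp for PRO-seq. The ratio of RNA-seq TPM to PRO-seq TPM served as a relative half-life, and each TU was compared with the median mRNA in edgeR. By the paper, this use assumes a steady state. It also names as a limit that PRO-seq reads polymerase occupancy, which depends on elongation rate, the speed of the polymerase, as well as on transcription. Differences are log2 values, so a negative value is a ratio lower than that of the median mRNA. The standard error given with a difference (±) is its absolute size divided by the square root of the F statistic of edgeR. A TU was called at an adjusted p (Benjamini-Hochberg over all TUs tested) under 0.05.

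Host RNA was mostly low for its nascent level. Of the 59 host TUs tested, 41 were below the median mRNA and 5 above. Of the 41, 7 are TUs with no RNA-seq count, whose fit rests on the model's prior count, and DESeq2 called 3 of these 7. Over all 21621 TUs tested, 55.7% were below and 25.6% above, and over the 2749 lincRNAs tested 69.7% and 3.97%. Among the 32 host TUs with at least 10 counts in each assay, 27 were below and 2 above, where 51.2% of all such TUs were below and 36.2% above. The share below among host TUs of this kind, 84.4%, was close to that of lincRNAs, of which 80.1% of 850 were below and 6.24% above. Of the 5 calls above, 3 were TUs that lie inside another counted TU on the same strand and have no PRO-seq count, and these are treated apart below. With the comparison centred on the median of all TUs tested in place of the median mRNA, which shifts every difference by 1.15, the split was 10 above and 27 below.

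**Figure D1:**
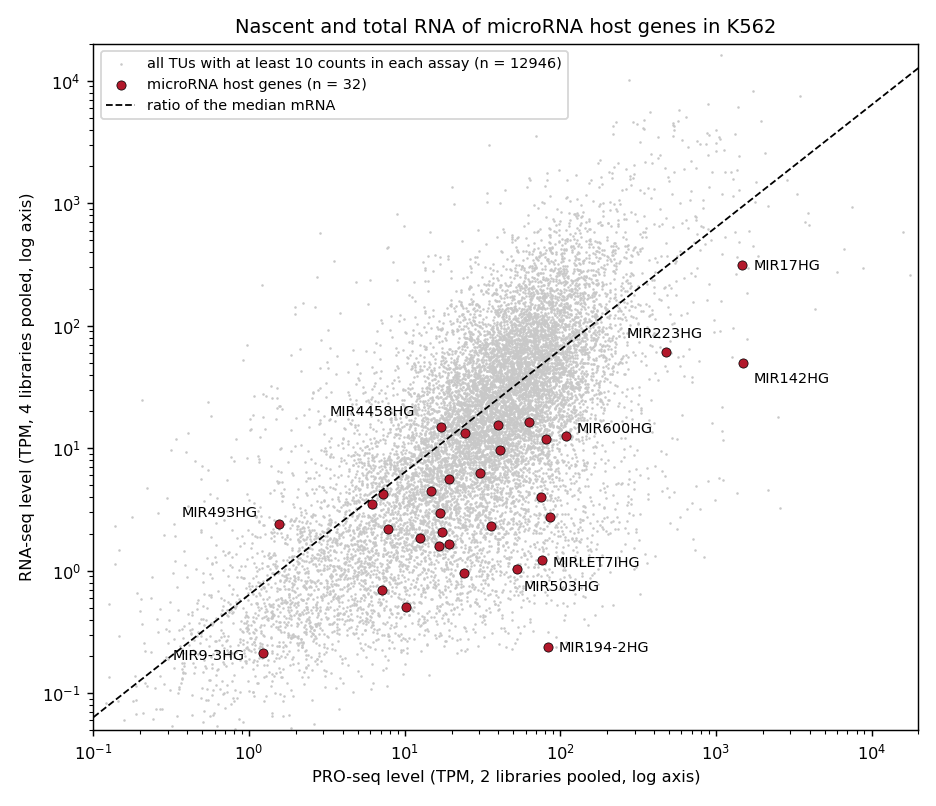
Pooled RNA-seq level against pooled PRO-seq level, in TPM on log axes, for the 12946 TUs with at least 10 counts in each assay (grey) and the 32 host TUs among them (red), with the ratio of the median mRNA dashed. MIR493HG and MIR4458HG lie above the line and pass the test, and MIR194-2HG lies farthest below it.

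The most transcribed hosts, MIR142HG, MIR17HG and MIR223HG, were on the list of 10 hosts of blood-cell and growth-linked microRNAs. Other hosts on that list were far lower, with a pooled PRO-seq level of 24.1 TPM for MIR222HG and 0.155 TPM for MIR155HG. MIR17HG (chr13:91347820-91354585, GRCh38, plus strand, 4 exons) is the host of a cluster known for promoting growth in blood cancers. Its nascent level was 1466 and 1489 TPM in the 2 PRO-seq libraries, above 99.8% of TUs with a PRO-seq count. Its RNA-seq level was 287, 343, 292 and 329 TPM in replicates 1 to 4. The assays were far apart in each library, and replicates 2 and 4 of RNA-seq were both above 1 and 3. MIR17HG was below the median mRNA, at a difference of -1.58 ± 0.05 (SE) with an edgeR adjusted p of 1.37e-236.

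MIR142HG (chr17:58330879-58332523, minus strand, 1 exon) carries miR-142, a microRNA of blood cells. Its nascent level was 1211 and 1753 TPM, a range that includes both MIR17HG values, but only 645 bp of this TU were left for PRO-seq, and its 500 counts are fewer than the 4449 of MIR17HG. Its RNA-seq level was 44.9, 52.6, 47.7 and 54.0 TPM. At a like nascent level, MIR17HG RNA was therefore 6.31 times that of MIR142HG, and between 6.09 and 6.52 times in the single libraries. MIR142HG was below the median mRNA, at -4.24 ± 0.11. The log2 half-life of MIR142HG less that of MIR17HG lay between -2.94 and -2.33 over the 8 pairings of an RNA-seq with a PRO-seq library.

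MIR223HG (chrX:66015414-66020422, plus strand, 2 exons) carries miR-223, a microRNA of the myeloid lineage. Its nascent level was 505 and 456 TPM and its RNA-seq level 57.0, 65.3, 58.0 and 63.5 TPM. Its ratio lay between those of MIR17HG and MIR142HG, at a difference of -2.32 ± 0.08 from the median mRNA (adjusted p = 2.22e-203). MIR600HG, whose single exon holds miR-600, was the only other host over 100 TPM in PRO-seq, at 107.9 and 108.1 TPM. Its RNA-seq level was 12.3, 12.5, 12.2 and 13.3 TPM, and its difference from the median mRNA -2.45 ± 0.12. The TU starts 6140 bp past the end of STRBP on the same strand, which had 62.6 TPM in PRO-seq. The part of that neighbour in the level was not tested.

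**Figure D2:**
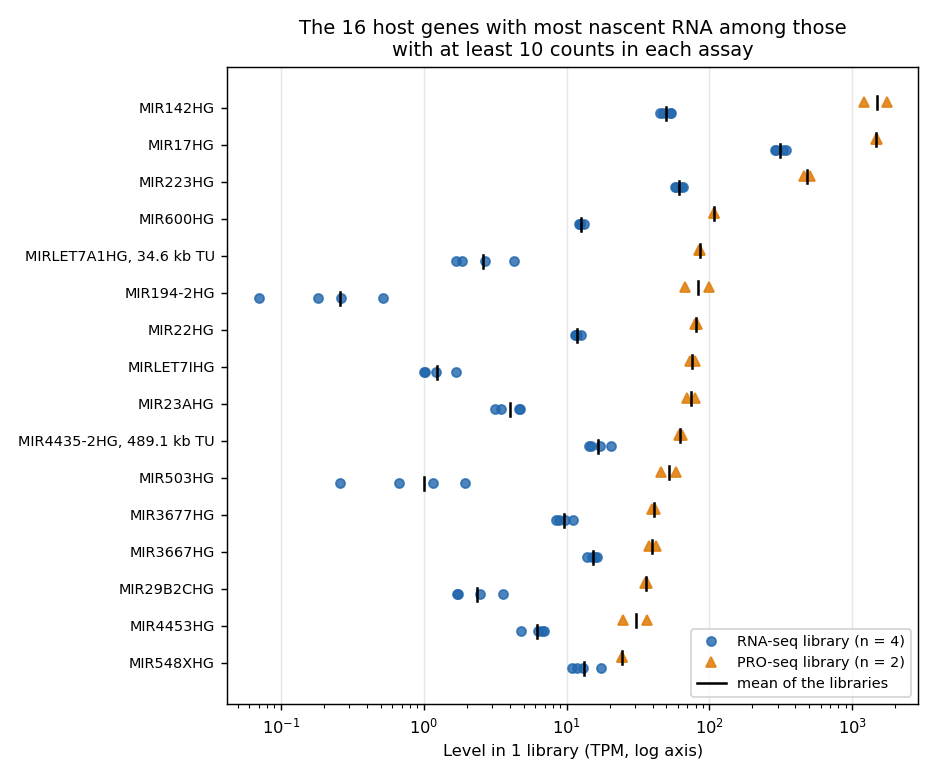
Level in each library, in TPM on a log axis, of the 16 host TUs with the highest PRO-seq level among those with at least 10 counts in each assay, with circles for the 4 RNA-seq libraries, triangles for the 2 PRO-seq libraries and black bars for their means. In each of these hosts all triangles lie to the right of all circles, and the RNA-seq circles are widest apart for MIR194-2HG and MIR503HG, the hosts with fewest RNA-seq counts shown.

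Other hosts of blood-cell and growth-linked microRNAs were lower still in the total RNA. MIR23AHG, an unspliced TU of 19 kb with the miR-23a, miR-27a and miR-24-2 hairpins in its exon, had 69.9 and 79.2 TPM in PRO-seq and 3.45, 4.61, 3.14 and 4.73 TPM in RNA-seq, a difference of -3.56 ± 0.09. MIR222HG, host of miR-221 and miR-222, differed by -3.96 ± 0.26 on 18 RNA-seq counts. MIR29B2CHG differed by -3.30 ± 0.18, and here the miR-29 hairpins lie outside the TU that was counted. MIR155HG, host of the lymphocyte microRNA miR-155, had 1 count in each assay, and MIR3142HG, host of miR-146a, had 1 RNA-seq and 9 PRO-seq counts. Of the 9 hosts of this list that could be tested, 7 were below the median mRNA, a share of 77.8% where 69.5% of all host TUs tested were below. The 7 include MIR181A2HG (-2.65 ± 0.69), which had 3 RNA-seq counts, all in replicate 1. The other 2, MIR181A1HG and MIR3142HG, did not pass.

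The let-7 hosts gave the clearest case in which counting decides the value. MIRLET7A1HG, host of let-7a-1, let-7f-1 and let-7d, has 2 counted TUs that start within a few bases of each other. The longer, of 34.6 kb (chr9:94166266-94200880, plus strand), had 86.1 and 84.8 TPM in PRO-seq and 4.25, 2.69, 1.69 and 1.84 TPM in RNA-seq, from 34 counts. The shorter, of 13.3 kb (chr9:94166258-94179564), whose second exon holds all 3 hairpins, had no PRO-seq count in either library and 28.0, 41.4, 36.3 and 42.5 TPM in RNA-seq, from 1935 counts. Its PRO-seq window lies inside the longer TU for 99.9% of its length. Across the series, 97.5% of 1807 TUs that lie wholly inside another TU on the same strand alone had no PRO-seq count, against 20.9% of 19180 TUs that overlap no other. Reads shared by TUs on one strand were thus hardly ever counted, and the ratio of either MIRLET7A1HG TU alone is not a ratio of the gene. Set over the nascent level of the longer TU, the RNA of the shorter was at -0.56 from the median mRNA and that of the longer at -4.30. With the bases shared by both removed from the length, the nascent level of the longer TU was 134.7 TPM in place of 85.4 TPM, and the values were -1.22 and -4.96. Both comparisons were chosen after the values were seen.

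MIRLET7IHG (chr12:62602752-62622213, plus strand, 2 exons), with let-7i in its intron, had no such overlap. Its nascent level was 72.9 and 78.9 TPM and its RNA-seq level 1.02, 1.22, 1.00 and 1.67 TPM. Its ratio was 39.3 times below that of the median mRNA (-5.30 ± 0.12). The TU starts 2276 bp past the end of MON2 on the same strand, which had 24.1 TPM in PRO-seq, and the part of that neighbour in the level was not tested. MIRLET7BHG differed by -2.41 ± 0.25, and its let-7b hairpin lies 7663 bp outside the TU that was counted. MIR100HG and MIR99AHG, hosts of the miR-100 and miR-99a clusters, had 116 and 80 PRO-seq counts over TUs of 402 and 560 kb, but 0 and 1 RNA-seq counts. Their namesake hairpins also lie outside the counted TUs, by 2447 and 50753 bp.

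Among stress-linked and growth-arrest hosts, MIR22HG, which holds miR-22 in its second exon, had 79.5 and 82.0 TPM in PRO-seq and 11.7, 11.5, 12.5 and 11.8 TPM in RNA-seq, and was below the median mRNA, at -2.12 ± 0.17 (adjusted p = 2.82e-36). MIR210HG, host of the hypoxia microRNA miR-210, differed by -2.88 ± 0.53 on 18 PRO-seq counts. MIR34AHG, host of the p53-regulated miR-34a, had 41 PRO-seq and 5 RNA-seq counts. MIR503HG, host of miR-503 of the miR-15/16 family, had 46.0 and 58.6 TPM in PRO-seq and 0.258, 1.96, 1.15 and 0.669 TPM in RNA-seq, from 14 counts in all. Its difference was -4.95 ± 0.40, and RNA-seq replicate 1 lay well under the others.

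Among hosts with at least 10 counts in each assay, the lowest ratio belonged to MIR194-2HG (chr11:64889560-64893449, minus strand, 2 exons), host of miR-194-2 and miR-192, which are known as liver and gut microRNAs. It had 66.9 and 99.8 TPM in PRO-seq and 0.0698, 0.265, 0.520 and 0.181 TPM in RNA-seq, from 12 counts. The groups were far apart in every library, with a difference of -7.70 ± 0.33 (adjusted p = 2.65e-119). The TU starts 1097 bp past the end of ATG2A on the same strand, and ATG2A had 74.8 TPM in PRO-seq, close to the level read over MIR194-2HG. The part of polymerase from ATG2A in that level was not tested.

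Only 2 hosts with at least 10 counts in each assay were above the median mRNA in edgeR. MIR493HG (chr14:100836269-100947194, plus strand, 19 exons) had 1.65 and 1.45 TPM in PRO-seq and 2.31, 2.43, 2.67 and 2.33 TPM in RNA-seq. Its difference was 1.29 ± 0.28 (edgeR adjusted p = 6.82e-06), and it was above in 8 of 8 library pairings. MIR4458HG (chr5:8457706-8486930, plus strand, 4 exons), whose miR-4458 carries the let-7 seed, had 19.3 and 15.1 TPM in PRO-seq and 15.7, 15.7, 14.6 and 13.0 TPM in RNA-seq. Its difference of 0.44 ± 0.15 (adjusted p = 0.0041 in edgeR) did not pass in DESeq2 (adjusted p = 0.0614) or without PRO-seq replicate 2 (0.26, adjusted p = 0.181).

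A further 8 hosts with at least 10 counts in each assay were below the median mRNA, MIR193BHG (-3.67 ± 0.26), MIR663AHG (-2.69 ± 0.34), MIR3936HG (-2.08 ± 0.21), MIR762HG (-1.85 ± 0.24), MIR4453HG (-1.63 ± 0.33), MIR3677HG (-1.42 ± 0.26), MIR4713HG (-1.18 ± 0.32) and MIR4733HG (-1.12 ± 0.39). The call of MIR4733HG was lost without PRO-seq replicate 2. Most of these hosts carry microRNAs known mainly by number, while MIR193BHG carries miR-193b and miR-365a, known from muscle and fat. The TUs of MIR762HG, MIR3936HG and MIR4713HG lie largely opposite genes on the other strand, 100%, 55.4% and 51.9% of their PRO-seq windows. Across the series, 37.9% of 4256 TUs inside a TU on the other strand alone had no PRO-seq count. That share was 20.9% for the 19180 TUs that overlap no other.

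The widths of the TUs were set beside their ratios as a description. Of the 23 host TUs of 100 kb or more, 7 had at least 10 counts in each assay, 14 had at least 10 PRO-seq and fewer than 10 RNA-seq counts (6 of them no RNA-seq count), and 2 had fewer than 10 in each, so a filter on RNA-seq counts leaves out wide TUs with little RNA. The 7 had a median difference of -0.72 (range -1.27 to 1.29), the 14 TUs of 10 to 100 kb a median of -2.69 (range -5.30 to 0.44), and the 11 of under 10 kb a median of -2.32 (range -7.70 to -1.12). LincRNAs past the same filter had medians of -0.53 (128 TUs), -1.90 (352 TUs) and -3.53 (370 TUs) in the same order of widths. The part of elongation rate in these medians was not tested. The longest TU of MIR4435-2HG, of 489 kb, had the most PRO-seq counts of any host, 15928, at 61.2 and 63.8 TPM. Its RNA-seq level was 14.8, 17.1, 20.3 and 14.2 TPM, and its difference -1.27 ± 0.09. MIR3681HG, of 571 kb, differed by -1.06 ± 0.12 and MIR3667HG, of 243 kb, by -0.72 ± 0.08. MIR548XHG (-0.21 ± 0.13), MIR3171HG (-0.12 ± 0.30) and the 12.5 kb MIR3945HG (-0.16 ± 0.32) did not pass the test, with adjusted p of 0.133, 0.717 and 0.649. Without RNA-seq replicate 1, MIR548XHG was below the median mRNA (-0.40, edgeR adjusted p = 0.0162).

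The place of the hairpin was set beside these values as a description. The 7 hosts with at least 10 counts in each assay and a hairpin within an exon had a median difference of -2.45 (range -7.70 to -1.63), and the 22 with intronic hairpins alone a median of -1.71 (range -5.30 to 1.29). Width went with place, since 6 of the intronic hosts spanned 100 kb or more and none of the exonic hosts did. Among TUs under 10 kb, the 6 exonic hosts had a median of -2.39 and the 5 intronic hosts one of -1.58, with ranges that overlapped.

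**Figure D3:**
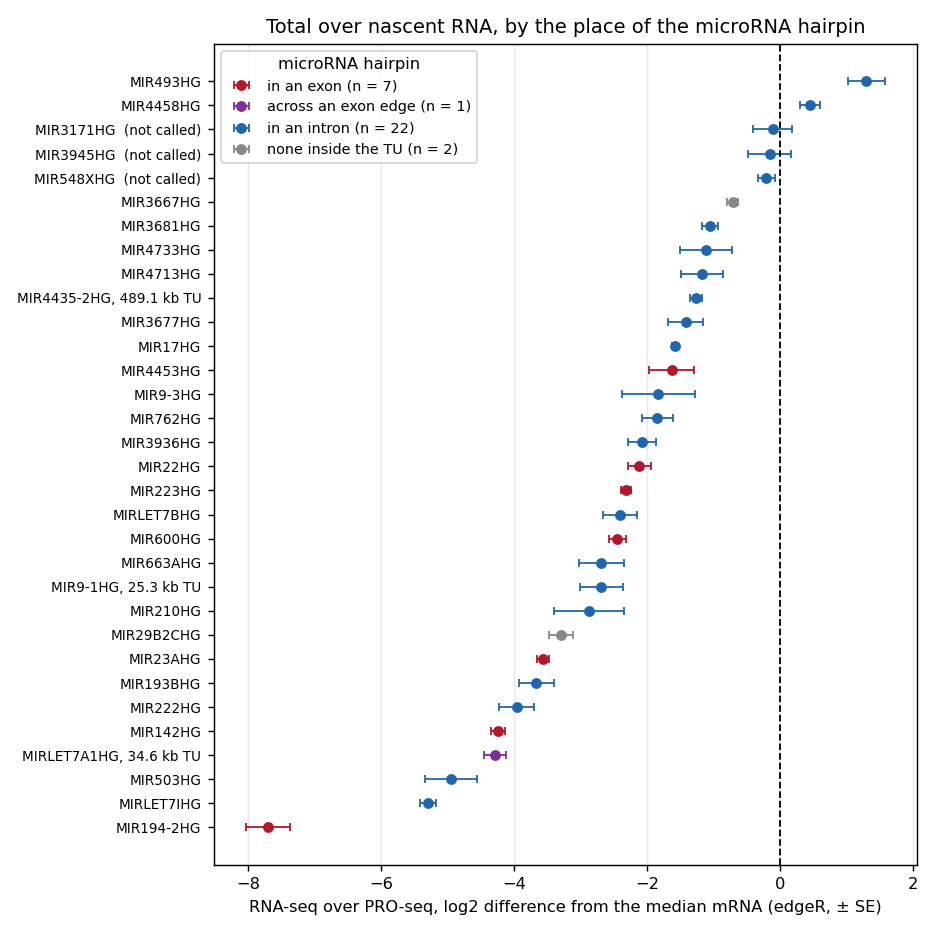
Difference of RNA-seq over PRO-seq from the median mRNA, as a log2 value from edgeR with its standard error, for the 32 host TUs with at least 10 counts in each assay, coloured by where the microRNA hairpin lies in the TU. Exonic (red) and intronic (blue) hosts overlap over most of the range, from MIR194-2HG at -7.70 to MIR493HG at 1.29, and 3 intronic hosts near 0 were not called.

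A half-life was given only to TUs whose PRO-seq level exceeded 10 TPM and whose RNA-seq level exceeded 1 TPM, which 23 of the 84 host TUs did. That was 27.4% of host TUs, where 26.9% of all TUs and 7.60% of lincRNAs passed. The median log2 half-life of the 23 was -2.12 relative to the median mRNA, and between -2.33 and -2.13 over the 8 library pairings. All TUs past these thresholds had a median of -0.24, lincRNAs of -2.47 and the host genes of small nucleolar RNAs, the SNHG genes and GAS5, of -0.88. In all 8 pairings, 21 of the 23 hosts were below the median mRNA, the others being MIR548XHG and MIR4458HG. The share of all TUs below in every pairing was not computed. In edgeR run on TUs past the thresholds alone, 5059 of all 10046 were below, and 21 of the hosts. Under the thresholds fell hosts such as MIR194-2HG, whose RNA-seq level was too low, and MIR493HG, whose PRO-seq level was too low. They had the lowest and the highest ratio among hosts with at least 10 counts in each assay, so the median leaves out ratios at both ends. With no thresholds, the median over the 53 host TUs with a count in both assays was -1.75.

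**Figure D4:**
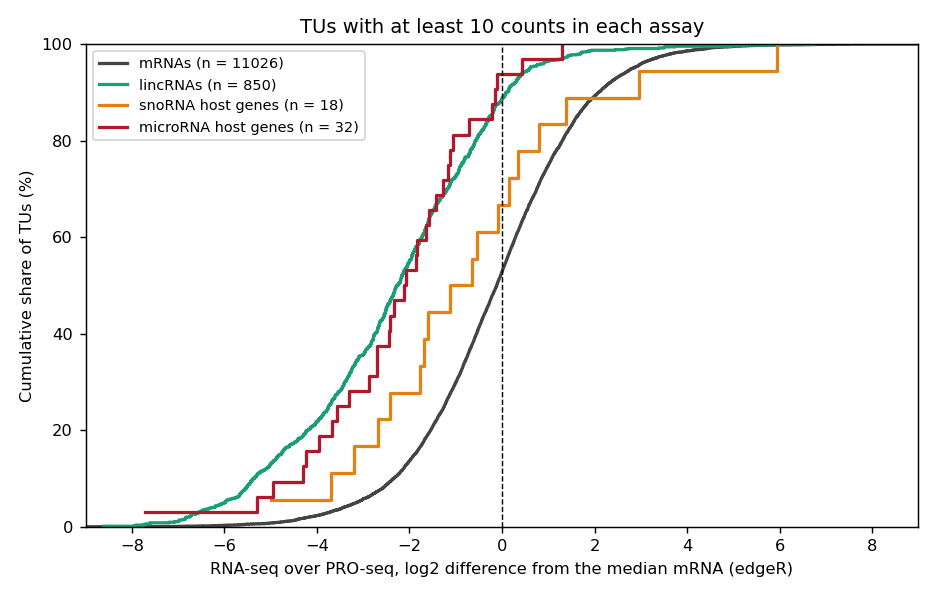
Cumulative share of TUs, in percent, by the log2 difference of RNA-seq over PRO-seq from the median mRNA, for TUs with at least 10 counts in each assay. The microRNA host genes (median -2.10) run along the lincRNAs (median -2.26), and the snoRNA host genes (median -0.88) lie between them and the mRNAs (median -0.11).

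The 22 hosts with at least 10 PRO-seq counts and fewer than 10 RNA-seq counts were transcribed at 0.183 to 45.8 TPM. In 14 of them, from MIR2052HG, MIR3150BHG, MIR34AHG, MIR181A2HG and MIR4500HG with 3 to 9 counts to MIR3659HG, MIR31HG, MIR646HG, MIR181A1HG, MIR4527HG, MIR4422HG, MIR99AHG, MIR1302-2HG and the 10.3 kb TU of MIR9-1HG with 1 count each, RNA-seq gave at least 1 count. For the other 8 RNA-seq gave no count. Their fitted differences rest on the model's prior count, so only a bound is given, from 3 counts over the 4 RNA-seq libraries. The bound takes the pooled PRO-seq level as measured and leaves out its counting error. On this bound MIR325HG, with 218 PRO-seq counts, was at least 3.57-fold lower in ratio than the median mRNA, MIR924HG 3.53-fold and MIR100HG 2.90-fold. The bounds of MIR5689HG, MIR4432HG and MIR137HG were 2.22-, 1.96- and 1.37-fold. These rest on only 13, 22 and 21 PRO-seq counts, so they are uncertain. The bounds of MIR4300HG (185 PRO-seq counts) and MIR548A1HG reached past the median mRNA, so the bound shows no lower ratio for these. MIR4300HG is nevertheless among the 41 calls in edgeR (adjusted p = 0.0307), and it did not pass in DESeq2 (adjusted p = 0.329). MIR1302-2HG had 13 PRO-seq counts over a window of 544 bp and 1 RNA-seq count. It has near-identical copies elsewhere in the genome, so its values are uncertain.

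Hosts of microRNAs known from other tissues were mostly at the limit of detection. The liver host MIR122HG had 2 RNA-seq counts and no PRO-seq count. The muscle hosts MIR1-1HG and MIR133A1HG had 8 counts in all between them, every one on MIR1-1HG. Among 7 epithelial, gonadal and pluripotent-cell host TUs, 5 had fewer than 10 counts in each assay, among them MIR200CHG, MIR205HG and MIR302CHG, and the others were MIR194-2HG and MIR31HG. Of the neural hosts, MIR9-1HG and MIR9-3HG had at least 10 counts in each assay. The 25.3 kb TU of MIR9-1HG had 15.1 and 17.9 TPM in PRO-seq and 2.11, 1.66, 2.09 and 0.456 TPM in RNA-seq, a difference of -2.69 ± 0.32. MIR9-3HG, with 23 PRO-seq and 14 RNA-seq counts, differed by -1.83 ± 0.55 (edgeR adjusted p = 0.00118). A count of 0 limits a level only to what 3 counts would give.

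Other host TUs had the same overlap as the shorter TU of MIRLET7A1HG. The PRO-seq windows of 2 shorter TUs of MIR4435-2HG and of MIR4307HG, MIR583HG and MIR670HG lie inside another counted TU on their strand, and with that of MIRLET7A1HG all 6 had 0 PRO-seq counts. MIR4307HG had 42 RNA-seq counts (2.36, 5.04, 2.64 and 3.84 TPM). With bases shared with other TUs on the same strand removed from the lengths, a choice made after seeing the data, 2 host TUs were above and 41 below the median mRNA.

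The genes that process microRNAs were counted in every library. Of the 9 that could be matched, 4 were above the median mRNA and 5 below in edgeR, where 25.6% and 55.7% of all TUs tested were. Of the 11026 mRNAs with at least 10 counts in each assay, a closer background for these genes, 4573 were above and 5070 below. TARBP2, a partner of DICER1, was above by 2.31 ± 0.15, and DICER1 itself by 0.19 ± 0.08 at an RNA-seq level of 13.8 TPM. The call of DICER1 was lost in DESeq2 (adjusted p = 0.0563) and with the replicate block (0.0612), as was that of PRKRA, another partner (0.18 ± 0.07, with adjusted p of 0.0651 and 0.297). DROSHA was at 24.4 TPM and below the median mRNA (-1.14 ± 0.05). Among the Argonaute genes AGO1 was above (0.21 ± 0.06), while AGO2 (-1.23 ± 0.05), AGO3 (-1.56 ± 0.05) and AGO4 (-0.49 ± 0.09) were below. XPO5 had the highest RNA-seq level of the list, 107.9 TPM, and differed by -0.09 ± 0.04, just past the threshold (edgeR adjusted p = 0.0447), and its call was lost in DESeq2 (adjusted p = 0.0734). DGCR8 was not analysed here.

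The labelled cell line was checked on markers. All 8 genes of the K562 list (fetal and embryonic globins, erythroid factors, glycophorin A and the transferrin receptor) had RNA-seq counts, with a summed level between 11714 and 12610 TPM over the 4 libraries. Of the 6 matched markers of other cell types, EPCAM had 118.6 TPM and COL1A2 1.35 TPM, and the T-cell, B-cell and liver genes CD3E, MS4A1 and ALB and the collagen gene COL1A1 were under 1 TPM.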

How the data were processed

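The authors deposited raw read counts per TU for each library, made with HTSeq from reads that cutadapt had trimmed and HISAT2 had placed on GRCh38. The sources used here give neither tool versions nor the strand option of HTSeq. By the methods 500 bp at each end of a TU were left out for PRO-seq, while the label names 500 bp only, so 500 bp in all was an alternative. Depth was 5732780 to 9002746 counts on TUs in RNA-seq libraries and 6993816 and 7245632 in PRO-seq. Records naming no TU (66.5% to 68.6% in RNA-seq, 86.5% and 88.6% in PRO-seq) were left out.

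Of 42371 transcripts, 88.1% were matched by identifier to GENCODE v44 lifted to GRCh37, which gave lengths and classes. Host positions are the GRCh38 positions recorded in that annotation, and microRNA positions and sequences are RefSeq's. TUs with at least 10 counts summed over the 6 libraries were tested with edgeR's quasi-likelihood test (version 4.0.16, TMM, offsets for length, centred on mRNAs past the half-life thresholds). In simulated counts it called 83% of 200 TUs given a log2 change of 2 among 21621, and 8 of the unchanged TUs. The changed TUs were drawn only from those above a minimum expected count, and every TU had the same dispersion. These figures therefore do not carry over to hosts with few counts. DESeq2 (version 1.42.0), other scalings and filters, TPM averaged over libraries, other thresholds and each library left out were alternatives. TUs named are those with at least 10 counts in either assay, the remainder by group, and 10 processing genes, of which 9 were matched. The members and lists were chosen with earlier results of these data known. The bounds for TUs with no RNA-seq count cover counting error of RNA-seq only, while the standard errors also take in the spread between libraries that edgeR estimated. Reads that lack molecular identifiers may be copies of the same molecule. Same-numbered RNA-seq and PRO-seq replicates did not deviate together (r = -0.01 over 13813 TUs). R and Python computed all steps.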

Additional observations from a re-analysis of the deposited data

Results flagged for a closer look

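The 4 RNA-seq levels of each host TU with at least 10 counts in an assay and a count in every library, and the share of counts on host genes, were examined for a library far from the others (37 values). In 2 of them the gap exceeded Dixon's 95% critical value, which chance alone passes in about 1 of 20 groups. For MIR3681HG, RNA-seq replicate 3 had 5.55 TPM where the others had 4.20 to 4.39 TPM (gap over range 0.842 on log2 TPM). For the 25.3 kb TU of MIR9-1HG, replicate 4 had 0.456 TPM where the others had 1.66 to 2.11 TPM (0.846), on 16 counts over the 4 libraries.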

How the results depend on the processing

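More host TUs were below than above the reference under each alternative run. The call and direction were the same in every alternative that gave a value for 31 of 58 named TUs, among them MIR17HG, MIR142HG, MIR223HG, MIR23AHG and MIR194-2HG. Host TUs above and below the median mRNA were 5 and 41, and 10 and 27 when centred on all TUs tested, 3 and 36 with DESeq2, 1 and 21 when TUs past the half-life thresholds alone were tested, 2 and 27 with at least 10 counts in each assay, 5 and 34 without TUs that have no RNA-seq count, 2 and 41 without shared bases or without the TUs inside another, and 3 to 5 and 37 to 43 with 1 library left out (3 without PRO-seq replicate 2). RNA-seq and PRO-seq share replicate numbers, but the numbers do not pair the libraries (r = -0.01), and the replicate block gave 4 and 35. With a minimum of 10 counts, 32 TUs were counted in both assays in place of 53. Past the half-life thresholds were 23 TUs, 13 at 20 and 2 TPM, and 53 with no thresholds, with a median of -1.75. The median was -2.22 from the mean TPM of the libraries, and -2.23 to -2.12 with 1 library left out. MicroRNA processing genes above the median mRNA were 2 with DESeq2 and 2 with the replicate block in place of 4, and 1 was below in place of 5 when centred on all TUs tested. That centring, which lowers the reference, turned MIR3681HG (0.092), MIR3667HG (0.43), MIR548XHG (0.94), MIR3945HG (0.99), MIR2052HG (1.08), MIR3171HG (1.03), MIR4733HG (0.017) and MIR4527HG (0.36) positive. The other reversals were in TUs that did not pass the test. MIR646HG, with 1 RNA-seq count, was at -5.53 with the replicate block, -6.08 with RNA-seq replicates 2 and 4 only, and -5.78 to 0.84 with 1 library left out. With RNA-seq replicates 1 and 3 only, MIR548XHG was at 0.026, MIR2052HG at 0.52 and MIR4527HG at 0.29. MIR2052HG was at 0.0028 with DESeq2. With 1 library left out, MIR3945HG ranged from -0.36 to 0.018, MIR2052HG from -0.98 to 0.45 and MIR3171HG from -0.34 to 0.14. The call of MIR4733HG was lost without PRO-seq replicate 2 (-0.54, adjusted p = 0.40). How small an edgeR adjusted p was also depended on the TUs tested. For AGO2 it was 2.8e-142 in the main fit and 7.2e-20 when TUs past the half-life thresholds alone were tested, with a difference of -1.23 in both. Limits of depth bear most on hosts with under 20 RNA-seq counts. The causes were not tested.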

Other observations

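RNA-seq replicates 2 and 4 were both above replicates 1 and 3 in 10 of the 36 host TUs with a count in every RNA-seq library, and both below in 2. These pairs were picked after the values were seen, and the same share over all TUs was not computed. The count therefore does not show a split particular to host genes. Among the 10 were the hosts MIR17HG, MIR223HG, MIR142HG and MIR23AHG, which had many RNA-seq counts. The share of matched counts on host genes was 0.0504% and 0.0499% in replicates 2 and 4, and 0.0430% and 0.0444% in replicates 1 and 3. The labels give no group that separates these libraries. Records that name no TU were 66.5% of the records in both replicates 2 and 4, and 68.5% and 68.6% in replicates 1 and 3. Their part in the split was not tested.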
